A study of Mus musculus with 7 samples.

Results

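Second heart field (SHF) transcription factors are described here in the outflow tract (OFT), the vessel through which blood leaves the embryonic heart. They are the 8 progenitor and early cardiac regulators *Isl1*, *Nkx2-5*, *Mef2c*, *Hand1*, *Hand2*, *Eya1*, *Foxc1* and *Foxc2*, which are neither T-box nor GATA factors. They were chosen by name, with earlier results of these data known, and all 8 were found, once each, among the 14732 genes of the deposited table. Whole OFTs were taken from mouse embryos at embryonic day (E) 11.5 and their polyadenylated RNA was sequenced. The question asked of these libraries was how gene expression in the OFT differs when 1 copy of *Gata6*, which encodes a zinc-finger transcription factor, is lost. There were 3 control pools (replicates 3, 4 and 5), labelled WT, and 4 Gata6STOP/+ pools (replicates 1, 3, 4 and 5). The Gata6STOP allele was made by CRISPR-Cas9 and carries a frameshift in exon 2 that ends the reading frame early. It is a germline allele, so all cells of a Gata6STOP/+ embryo carry it beside 1 intact copy, and no Cre driver restricts it to the SHF. The line descends from 1 chosen founder crossed back to C57BL/6. Each library is a pool of OFTs, given in the design as 4 pairs, from embryos that are not told apart. The design names 3 pools per genotype, whereas 4 Gata6STOP/+ pools are labelled, and all 7 were used.

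The SHF is a population of mesodermal progenitors that lies behind the early heart tube and feeds cells into its poles. At the arterial pole these cells build the myocardium of the OFT and of the right ventricle, together with part of the OFT smooth muscle and endothelium. The progenitors are kept proliferating by growth factor signals and by regulators such as ISL1, and they switch to a muscle programme under NKX2-5, MEF2C and the HAND factors as they join the heart. By the stage sampled, most SHF cells of the OFT have differentiated, and the tissue also holds neural crest-derived mesenchyme, endocardium and blood.

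Between 17783655 and 34467710 reads per pool lay on the listed genes. Expression values are CPM, the read count of a gene scaled to a fixed library total, after correction of that total by the TMM method (trimmed mean of M-values). Groups were compared gene by gene with limma on log2(CPM+0.5), and P-values were adjusted over all 14732 genes. Nothing in the labels says what separates the pools of a group beyond their replicate numbers, so P-values measure the spread between these pools. *Gata6* itself averaged 286±28.9 CPM (s.d., n=3) over control and 227±28.7 CPM (s.d., n=4) over Gata6STOP/+ pools, and the groups overlapped. Its log2 fold change was −0.34 with a limma adjusted P-value of 0.389. Cardiomyocyte markers identified the tissue in every pool, and the 12 of them summed to between 17105 and 23259 CPM. The lowest sum was that of Gata6STOP/+ replicate 1, whereas the other 6 pools were between 20526 and 23259. Control replicate 4 stood apart in chamber myocardium genes, with 174 CPM of *Nppa*, the gene of atrial natriuretic peptide, against at most 32.1 in any other pool. Transcripts that mark embryo sex also differed between libraries, in part along with genotype, so sex and genotype cannot be fully told apart. All 4 Y-linked genes were higher in Gata6STOP/+ pools at an unadjusted limma P-value under 0.05, as were 4.17% of all genes. Their median log2 fold change was 0.95, and their smallest limma adjusted P-value was 0.420. The 4 Y-linked genes summed to 39.9–93.4 CPM in control and 70.4–174 CPM in Gata6STOP/+ pools, and *Xist*, the RNA that coats the inactive X chromosome, ranged from 1.30 CPM in Gata6STOP/+ replicate 4 to 662 CPM in control replicate 4. The larger shifts of a factor's value without these pools, or with the Y-linked level as a covariate, are given beside that factor.

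With limma, 0 of the 8 factors passed the adjusted threshold of 0.05, as did 0% of all listed genes. At an unadjusted P-value under 0.05 there were 4 factors, beside 8.06% of all listed genes. Of these, *Hand1*, *Isl1* and *Eya1* were higher in Gata6STOP/+ pools (4.17% of all genes were called in that direction) and *Foxc2* was lower (3.88%). *Eya1* is counted here although it met the authors' minimum through its Gata6STOP/+ pools, which favours a higher value there. The factors were also chosen with earlier results of these data known, so their count is no test against the share of all genes. *Hand1* was the 1 factor for which each Gata6STOP/+ pool exceeded each control pool, an arrangement held by 4.31% of all genes (8.47% in either direction). For 0 factors did each Gata6STOP/+ pool lie below each control pool, as in 4.16% of all genes. EdgeR's quasi-likelihood test on the reads behind the values called 0 factors and 0% of all genes. EdgeR's likelihood ratio test called *Hand1* alone (adjusted P-value 0.0239) beside 0.713% of all genes. DESeq2 also called *Hand1* alone (adjusted P-value 0.0215) beside 0.597% of the genes it tested. With the replicate number as a block, 0 factors were called by limma (0.0950% of all genes), by the quasi-likelihood test (0.0882%) or by the likelihood ratio test (0.801%). Such a block takes Gata6STOP/+ replicate 1, which shares its number with no control pool, out of the comparison. The median log2 fold change of the 8 factors was 0.06, and that of all listed genes was −0.00073.

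**Figure D1:**
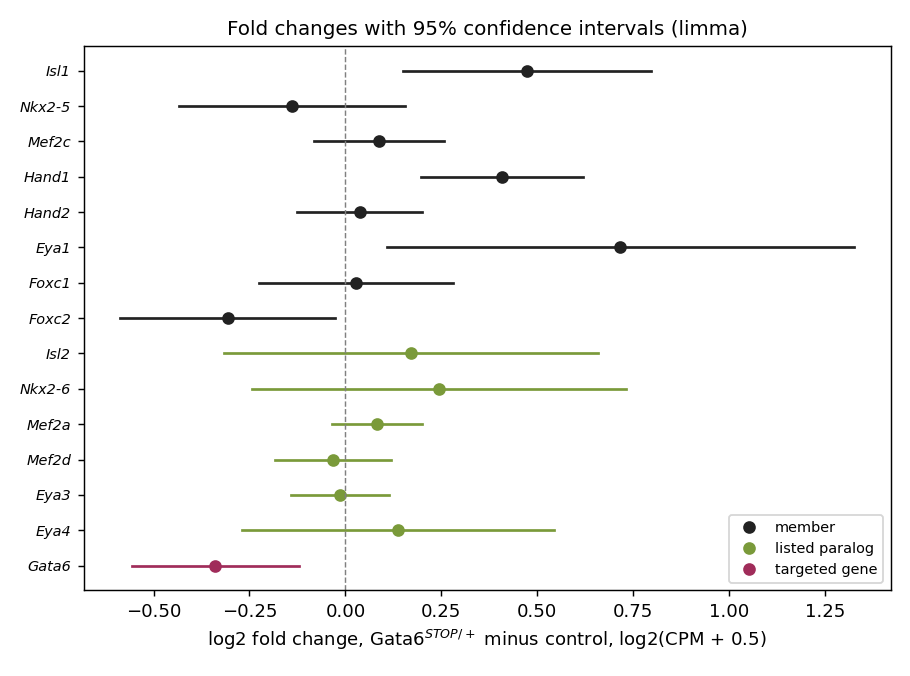
Log2 fold change (Gata6STOP/+ minus control, on log2(CPM+0.5), horizontal axis) of the 8 factors (black), their 6 listed paralogs (green) and *Gata6* (purple), with points as limma estimates and lines as 95% confidence intervals. The intervals of *Isl1*, *Hand1* and *Eya1* lie above 0 and those of *Foxc2* and *Gata6* below it, while the intervals of the other factors and of the 6 paralogs span 0.

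The levels of the factors relative to one another were compared as CPM per kilobase (kb) of annotated exon. *Hand2* was the most abundant, at 105±9.88 CPM per kb (s.d., n=3 control pools), a level above that of 97.4% of listed genes over the 7 pools. *Nkx2-5* followed at 57.7±7.68 and *Hand1* at 31.7±4.71 CPM per kb. *Foxc2* was at 22.1±2.09, *Foxc1* at 10.1±0.559 and *Isl1* at 9.64±0.997 CPM per kb. *Mef2c* was at 5.94±0.660 CPM per kb, a value lowered by its annotation, since 31 transcripts together cover 15715 exon bases. *Eya1* was lowest, at 0.158±0.0818 CPM per kb, where 2.21% of listed genes had a lower level. In control pools, neighbours in this order did not overlap in any pair but *Foxc1* and *Isl1*, whose order cannot be told from these pools. In Gata6STOP/+ pools *Isl1* had a mean of 13.6±3.10 and *Foxc1* of 10.4±1.84 CPM per kb (s.d., n=4), and their pools still overlapped. There, *Hand1* (38.5–44.8 CPM per kb) also overlapped with *Nkx2-5* (40.2–60.02), and *Isl1* (10.7–17.8) with *Foxc2* (14.1–21.05).

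**Figure D2:**
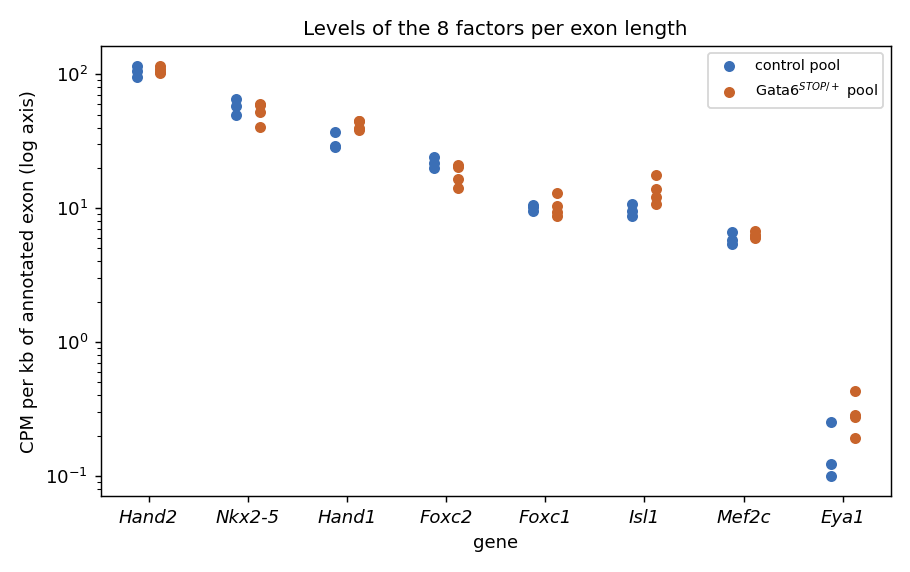
CPM per kb of annotated exon (vertical axis, log scale) of each factor, ordered by the control mean, with 1 point per pool (blue, 3 control pools; orange, 4 Gata6STOP/+ pools). *Hand2* lies highest near 105 and *Eya1* lowest, below 0.5 in each pool, and *Foxc1* and *Isl1* share 1 range in the control pools.

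*Isl1* (ENSMUSG00000042258) encodes the LIM-homeodomain protein on which the SHF progenitor state depends, and little of its RNA remains in mature heart muscle. The gene lies at chr13:116298281-116309689 on the minus strand of GRCm38. Control replicates 3, 4 and 5 measured 37.5, 34.6 and 42.4 CPM. In Gata6STOP/+ replicates 1, 3, 4 and 5 the level was 70.5, 47.8, 55.4 and 42.3 CPM. The Gata6STOP/+ pools thus lay above the controls except that replicate 5 fell just short of the highest control. The means were 38.2±3.95 CPM (s.d., n=3) and 54.0±12.3 CPM (s.d., n=4), the latter 142% of the former. The log2 fold change was 0.47 (95% interval 0.15 to 0.80), with a standard error of 0.147 and a limma adjusted P-value of 0.419. Its unadjusted P-value by limma's model was 0.00812, the 282nd smallest of all genes. Between 757 and 2011 reads stood behind each value, which gives exact 95% Poisson half-widths of 4.396–7.19% for counting error alone, smaller than the differences among Gata6STOP/+ pools. Without Gata6STOP/+ replicate 1, which was highest for *Isl1* and lowest in cardiomyocyte markers, the log2 fold change was 0.34 (limma adjusted P-value 0.447). With the Y-linked level as a covariate it was 0.28 (adjusted P-value 0.679). In these bulk pools, more cells with *Isl1* RNA and more of it per cell cannot be told apart.

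*Isl1* is also a regulator of motor, sensory and autonomic neurons, which could be carried along in a dissected OFT. Of 14 neuronal markers, 9 were listed, and their sum was 54.3–78.0 CPM in control and 61.4–72.7 CPM in Gata6STOP/+ pools. The defining genes *Phox2a*, *Pou4f1*, *Prph* and *Dbh* were not listed. 2 of the 9, *Th* (catecholamine synthesis) and *Stmn2* (growing axons), were higher in each Gata6STOP/+ pool than in any control pool, with means of 1.32 against 2.32 CPM and 16.6 against 22.0 CPM. The tubulin gene *Tubb3* had a lower mean in Gata6STOP/+ pools, at 27.9 against 37.5 CPM. The part of these cells in the *Isl1* difference was not tested. Of 11 markers of pharyngeal and foregut epithelium, 8, *Epcam* and *Cdh1* among them, were not listed. The 3 listed were *Sox2* and the keratin genes *Krt8* and *Krt18*, with 2 log2 fold changes above 0 and 1 below (−0.11 to 0.12). *Krt8* and *Krt18* had means of 57.1 and 34.6 CPM in control and 61.0 and 37.3 CPM in Gata6STOP/+ pools, and overlapped between groups.

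A promoter window of *Isl1* is shown because GATA6 binds the DNA core GATAA, and *Isl1* was a factor with a higher mean when 1 copy of *Gata6* carried the stop. The windows hold 250 bases before and 50 after an annotated RefSeq start (GRCm38.p6), and 7 windows were given for 5 of the factors, with none for *Hand1*, *Eya1* and *Foxc2*. GATAA, on either strand (TTATC on the other), occurred in 25.4% of 32851 mouse promoter windows and in 3 of these 7, those of *Isl1* and *Hand2* and 1 of the 3 of *Mef2c*. The *Isl1* window, at chr13:116309639-116309938 on the minus strand, holds 2 matches, shown in capitals, 1 upstream and 1 just downstream of the start.
Isl1: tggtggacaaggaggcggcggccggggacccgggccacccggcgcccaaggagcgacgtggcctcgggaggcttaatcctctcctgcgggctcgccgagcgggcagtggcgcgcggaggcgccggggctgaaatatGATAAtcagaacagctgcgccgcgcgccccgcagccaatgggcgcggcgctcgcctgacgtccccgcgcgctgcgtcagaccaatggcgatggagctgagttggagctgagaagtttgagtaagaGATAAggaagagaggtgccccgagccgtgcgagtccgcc
Neither AAGTG, the core bound by NKX2-5 and searched on the other strand as CACTT, nor the E-box bound by HAND proteins was found in this window. The E-box was searched as CATCTG and, for the other strand, as its complement read backwards, CAGATG. The 2 cores occurred in 46.4% and 17.2% of all windows. A match describes the letters only, and no binding was measured in these samples.

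*Nkx2-5* (ENSMUSG00000015579, chr17:26838664-26845009, minus strand) encodes the homeodomain factor that drives differentiation of cardiac progenitors into myocardium and restrains *Isl1* in them. Levels of 112, 85.8 and 99.7 CPM were found in control replicates 3, 4 and 5. In Gata6STOP/+ replicates 1, 3, 4 and 5 they were 69.1, 103, 101 and 89.2 CPM. The groups overlapped, and Gata6STOP/+ replicate 1 was the lowest of the 7 pools. The means were 99.2±13.2 CPM (s.d., n=3) and 90.7±15.6 CPM (s.d., n=4). This is a log2 fold change of −0.14 (95% interval −0.43 to 0.16, limma adjusted P-value 0.8286). It was −0.015 without Gata6STOP/+ replicate 1, and leaving out control replicate 3 gave −0.046 and control replicate 4 gave −0.24.

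The same library stood out in the within-pool ratio of *Isl1* to *Nkx2-5*, a quantity that does not depend on scaling between libraries. The ratio of CPM was 0.335, 0.403 and 0.425 in control replicates 3, 4 and 5. It was 1.02 in Gata6STOP/+ replicate 1 and 0.463, 0.548 and 0.474 in replicates 3, 4 and 5. All 4 Gata6STOP/+ pools lay above all 3 control pools, and replicate 1 lay far above the rest of its group. The mean log2 ratio was −1.38±0.181 (s.d., n=3) in control and −0.76±0.534 (s.d., n=4) in Gata6STOP/+ pools, a difference of 0.62 that became 0.36 without that pool. No test was made of this ratio or of those that follow.

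**Figure D3:**
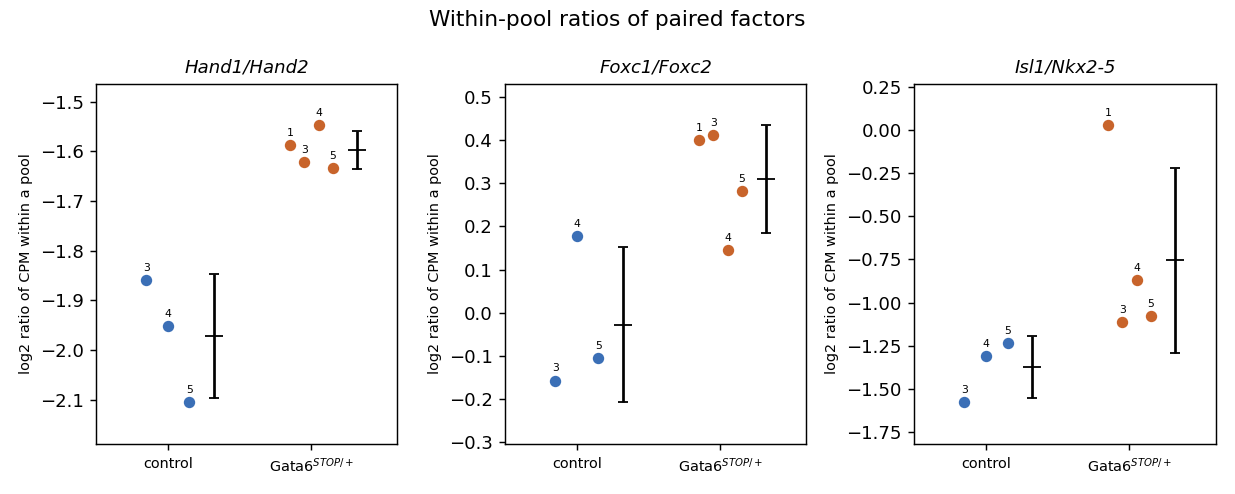
Log2 ratio of CPM within each pool (vertical axis) for *Hand1* over *Hand2*, *Foxc1* over *Foxc2* and *Isl1* over *Nkx2-5*, with 1 point per pool, numbered by replicate (blue, control; orange, Gata6STOP/+), and bars for mean and s.d. (n=3 and n=4). The groups did not overlap for *Hand1* over *Hand2* and *Isl1* over *Nkx2-5*, and Gata6STOP/+ replicate 1 stands alone at 0.03 in the latter.

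*Mef2c* (ENSMUSG00000005583, chr13:83504034-83667080, plus strand) encodes a MADS-box factor that acts downstream of ISL1 in the SHF and activates contractile genes. Control replicates 3, 4 and 5 had 84.5, 105 and 90.8 CPM. Gata6STOP/+ replicates 1, 3, 4 and 5 had 94.0, 105, 97.0 and 99.6 CPM. The control range enclosed nearly all of the Gata6STOP/+ values, which varied little, with a coefficient of variation of 4.86%. The means were 93.4±10.4 CPM (s.d., n=3) and 99.0±4.81 CPM (s.d., n=4). On the log2 scale the difference was 0.09 (95% interval −0.08 to 0.26, limma adjusted P-value 0.809). Leaving out control replicate 3, the lowest control, gave 0.02, leaving out control replicate 4, the highest, gave 0.17, and the fit gave 0.25 with the Y-linked covariate (adjusted P-values 0.992, 0.524 and 0.371).

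*Hand1* (ENSMUSG00000037335, chr11:57828705-57832818, minus strand) encodes a basic helix-loop-helix factor of the left ventricle, the OFT myocardium and neural crest derivatives. Its values were 74.1, 57.6 and 58.0 CPM in control replicates 3, 4 and 5. Those of Gata6STOP/+ replicates 1, 3, 4 and 5 were 89.5, 79.8, 88.6 and 76.8 CPM. The lowest Gata6STOP/+ pool, replicate 5, still exceeded the highest control, replicate 3. The means were 63.2±9.41 CPM (s.d., n=3) and 83.7±6.34 CPM (s.d., n=4), or 132% of control. The log2 fold change was 0.41 (95% interval 0.20 to 0.62), with a standard error of 0.0955 and a limma adjusted P-value of 0.246. By unadjusted P-value, 0.00135 in limma's model, it ranked 81st of all genes. The adjusted P-value passed the threshold with edgeR's likelihood ratio test and DESeq2, as given above, and not with the other alternatives. With the Y-linked level as a covariate the log2 fold change was 0.25 (limma adjusted P-value 0.543). Without control replicate 4 it was 0.35, and without Gata6STOP/+ replicate 1 it was 0.38 (adjusted P-values 0.382 and 0.356).

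*Hand2* (ENSMUSG00000038193, chr8:57320983-57324633, plus strand), the paralog of *Hand1*, encodes the basic helix-loop-helix factor needed for survival of SHF-derived cells of the right ventricle and OFT. Control replicates 3, 4 and 5 were at 269, 223 and 250 CPM. Gata6STOP/+ replicates 1, 3, 4 and 5 were at 269, 246, 259 and 238 CPM. The Gata6STOP/+ values lay within the control range, apart from replicate 1, which matched its upper end. Means of 247±23.2 CPM (s.d., n=3) and 253±13.7 CPM (s.d., n=4) gave a log2 fold change of 0.04 (95% interval −0.13 to 0.20, limma adjusted P-value 0.927). Its sign turned without control replicate 4 (−0.036) and with the Y-linked covariate (−0.088).

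The *Hand2* promoter window, at chr8:57320733-57321032 on the plus strand, is shown for comparison, since it also holds 2 GATA cores and is the 1 factor window with all 3 cores. Capitals mark, from left to right, the E-box, the NKX2-5 core on the other strand, then GATAA and last its form on the other strand, and both GATA cores lie upstream of the start.
Hand2: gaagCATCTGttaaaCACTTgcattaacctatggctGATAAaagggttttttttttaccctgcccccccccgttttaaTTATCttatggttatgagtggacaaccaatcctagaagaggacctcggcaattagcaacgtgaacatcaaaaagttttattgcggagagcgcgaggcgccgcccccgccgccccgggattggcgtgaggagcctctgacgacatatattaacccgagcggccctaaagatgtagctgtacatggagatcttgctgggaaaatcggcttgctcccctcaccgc
The log2 fold change was 0.47 for *Isl1*, 0.04 for *Hand2* and 0.09 for *Mef2c*, each with 2 GATA cores in a window (for *Mef2c*, in 1 of its 3). For *Nkx2-5* and *Foxc1*, with no GATA core in their window, it was −0.14 and 0.03. Any relation between these cores and the fold changes was not tested.

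Within pools, *Hand1* stood at a higher fraction of *Hand2* in the Gata6STOP/+ OFTs. The ratio of their CPM was 0.276, 0.259 and 0.232 in control replicates 3, 4 and 5. It was 0.333, 0.325, 0.342 and 0.322 in Gata6STOP/+ replicates 1, 3, 4 and 5. The groups did not overlap, and the Gata6STOP/+ pools lay close together. The mean log2 ratio was −1.97±0.124 (s.d., n=3) in control and −1.60±0.0384 (s.d., n=4) in Gata6STOP/+ pools, a difference of 0.38. Leaving out any single pool kept the difference between 0.31 and 0.43. The ratio reuses the values above, with log2 fold changes of 0.41 for *Hand1* and 0.04 for *Hand2*, so it is no separate evidence on *Hand1*. Per kb of exon the ratios were 0.274–0.324 in control and 0.380–0.403 in Gata6STOP/+ pools.

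Reads of *Hand2* share sequence with *Hand2os1* (ENSMUSG00000100510, chr8:57281117-57324233, minus strand), a long noncoding RNA that overlaps *Hand2* by 3251 bases. Of the 60-base windows of the *Hand2* transcript, the length of a read, 14.97% also occur on the opposite strand in *Hand2os1*. The libraries kept strand, but the strand setting of the counting was not given in the sources used here, so part of either gene's reads could belong to the other. Control replicates 3, 4 and 5 held *Hand2os1* at 95.03, 94.99 and 96.3 CPM. Gata6STOP/+ replicates 1, 3, 4 and 5 held it at 105, 112, 109 and 105 CPM. The groups did not overlap, and *Hand2os1* had a log2 fold change of 0.17, with a standard error of 0.0531 and an adjusted P-value of 0.420 by limma. For the other 7 factors, 0 of the 60-base windows occurred in a transcript of another gene.

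*Eya1* (ENSMUSG00000025932, chr1:14168954-14310235, minus strand) encodes a transcriptional coactivator and phosphatase that works with homeodomain partners to drive growth factor expression in SHF progenitors. Its RNA was sparse. Control replicates 3, 4 and 5 had 0.959, 1.97 and 0.784 CPM, from 20, 57 and 14 reads. Gata6STOP/+ replicates 1, 3, 4 and 5 had 2.25, 2.14, 1.51 and 3.37 CPM, from 64, 59, 37 and 116 reads. Control replicate 4 lay above Gata6STOP/+ replicate 4, so the groups overlapped. It met the minimum of 1 CPM in 1 of 3 control and 4 of 4 Gata6STOP/+ pools, and so entered the table through the Gata6STOP/+ group. The means were 1.24±0.638 CPM (s.d., n=3) and 2.32±0.777 CPM (s.d., n=4), or 187% of control. Its log2 fold change was 0.72 (95% interval 0.11 to 1.33), with a standard error of 0.276 and a limma adjusted P-value of 0.534. Counting error was large, with exact 95% Poisson half-widths of 18.7–56.6%, against 2.17–7.19% for the other 7 factors. The size depended on the constant added before the logarithm, at 0.90 with 0.1 and 0.42 with 2 in place of 0.5. Leaving out control replicate 4 gave 1.0005, leaving out control replicate 5 gave 0.53, and the Y-linked covariate gave 1.05 (limma adjusted P-values 0.315, 0.736 and 0.435).

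*Foxc1* (ENSMUSG00000050295, chr13:31806633-31812476, plus strand) encodes a forkhead factor of the SHF, the neural crest and vascular mesenchyme. Control replicates 3, 4 and 5 contained 59.3, 61.9 and 55.4 CPM of it. Gata6STOP/+ replicates 1, 3, 4 and 5 contained 75.7, 51.2, 60.8 and 54.9 CPM. The Gata6STOP/+ group held both the highest and the lowest of the 7 pools. With means of 58.9±3.27 CPM (s.d., n=3) and 60.6±10.8 CPM (s.d., n=4), the log2 fold change was 0.03 (95% interval −0.23 to 0.28, limma adjusted P-value 0.969). Its sign turned without Gata6STOP/+ replicate 1 (−0.084), without control replicate 5 (−0.015) and with the Y-linked covariate (−0.10).

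*Foxc2* (ENSMUSG00000046714, chr8:121116171-121118895, plus strand) is the paralog of *Foxc1*, with which it acts in the SHF and in remodelling of the aortic arch arteries. Its values were 66.1, 54.8 and 59.6 CPM in control replicates 3, 4 and 5. In Gata6STOP/+ replicates 1, 3, 4 and 5 they were 57.4, 38.5, 54.998 and 45.1 CPM. Gata6STOP/+ replicates 1 and 4 overlapped with the lowest control, and replicates 3 and 5 lay below each control. The means were 60.2±5.69 CPM (s.d., n=3) and 49.0±8.76 CPM (s.d., n=4), or 81.5% of control. The log2 fold change was −0.31 (95% interval −0.59 to −0.03), with a standard error of 0.127 and a limma adjusted P-value of 0.577. Without Gata6STOP/+ replicate 3 it was −0.20, and with the Y-linked level as a covariate it was −0.62 (adjusted P-values 0.611 and 0.127).

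The ratio of *Foxc1* to *Foxc2* CPM was 0.897, 1.13 and 0.930 in control replicates 3, 4 and 5. It was 1.32, 1.33, 1.11 and 1.22 in Gata6STOP/+ replicates 1, 3, 4 and 5. The Gata6STOP/+ pools were all above 1, and control replicate 4 was above the lowest of them. The mean log2 ratio was −0.028±0.179 (s.d., n=3) in control and 0.31±0.124 (s.d., n=4) in Gata6STOP/+ pools.

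**Figure D4:**
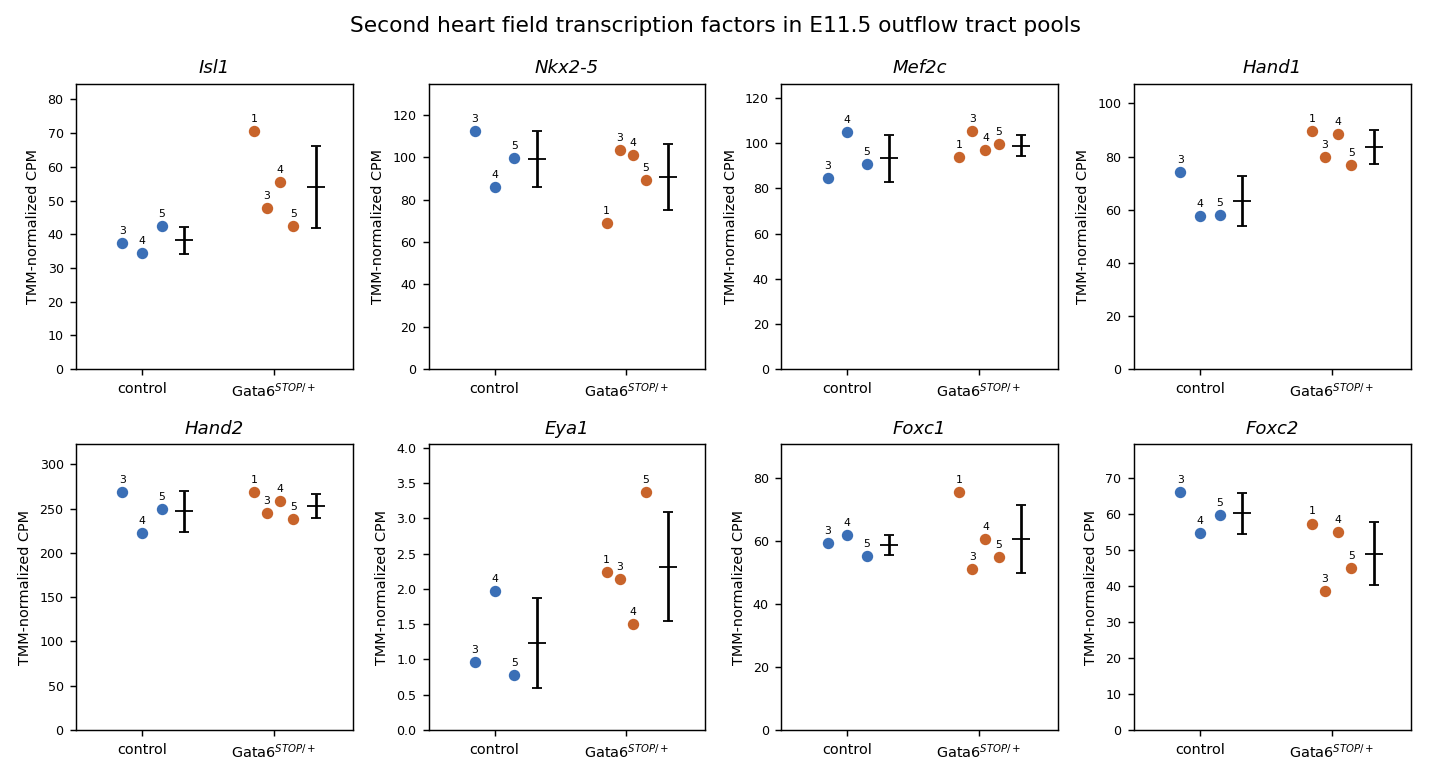
TMM-normalized CPM (vertical axis, from 0) of each of the 8 factors, with 1 point per pool, numbered by replicate (blue, 3 control pools; orange, 4 Gata6STOP/+ pools), and bars for the mean and s.d. of each group. *Hand1* is the 1 panel in which each Gata6STOP/+ point lies above each control point, and *Isl1* misses this by replicate 5 at 42.3 CPM.

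Read across pools, the factors did not move as 1 block. Gata6STOP/+ replicate 1 was the highest of the 7 pools for *Isl1*, *Hand1*, *Foxc1* and, narrowly, *Hand2*, and the lowest for *Nkx2-5*. Control replicate 4 was the lowest for *Isl1*, *Hand1* and *Hand2*. Gata6STOP/+ replicate 3 was the lowest for both *Foxc1* and *Foxc2* and the highest for *Mef2c*. Over the 7 pools the coefficient of variation was smallest for *Hand2* (6.72%) and *Mef2c* (7.78%) and, leaving aside the sparse *Eya1* (47.4%), largest for *Isl1* (26.1%).

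**Figure D5:**
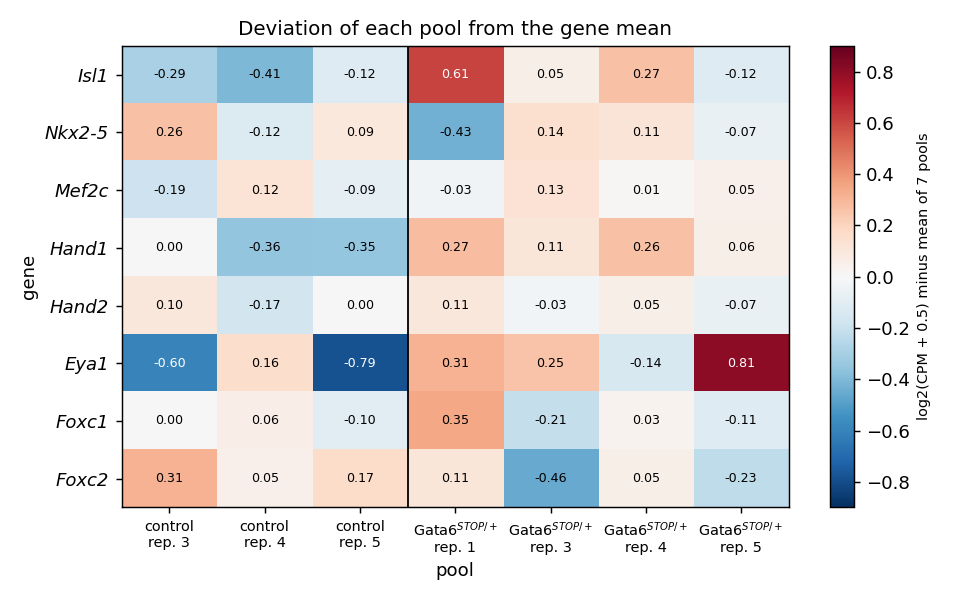
Deviation of each pool (columns) from the mean of the 7 pools on log2(CPM+0.5) for each factor (rows), in red where higher and blue where lower, with the value printed in each cell and a line between the 3 control and 4 Gata6STOP/+ pools. *Isl1* reaches 0.61 in Gata6STOP/+ replicate 1, where *Nkx2-5* is at −0.43.

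The genes whose profile over the 7 pools was nearest to that of each factor were sought among 11627 genes (those averaging 5 CPM or more), by the root mean square difference between mean-centred log2(CPM+0.5) values. Nearest to *Isl1* was *Emilin3* (0.130). For *Nkx2-5* they were the muscle myosin gene *Myh7b* (0.061) and *Ppp1r13l* (0.062). *Mfsd6* (0.067) and *Sparcl1* (0.072) were nearest to *Hand1*, and *2700081O15Rik* (0.026) and *Cacnb3* (0.031) to *Hand2*. *Cdc37l1* (0.020) and *Slmap* (0.030) were nearest to *Mef2c*. *Lipa* (0.031) and *Osbpl6* (0.041) were nearest to *Foxc1*, and *Slc1a4* (0.069) and *Meox1* (0.070), a homeobox gene of paraxial mesoderm, to *Foxc2*. For *Eya1*, the nearest genes *Gm10288* (0.176) and *Igsf9b* (0.245) lay farther off than the nearest of any other factor.

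Of 9 paralogs of the factors outside the 8, 6 were listed and 0 passed the limma test, with 0 at an unadjusted P-value under 0.05. *Isl2*, which shares the LIM-homeodomain of *Isl1*, averaged 1.90±0.347 CPM (s.d., n=3) over control and 2.26±0.732 CPM (s.d., n=4) over Gata6STOP/+ pools. *Nkx2-6*, the pharyngeal relative of *Nkx2-5*, was at 3.22±1.03 and 3.86±0.846 CPM. The MEF2 genes *Mef2a* and *Mef2d* exceeded *Mef2c* in reads, with means of 168 and 153 CPM in control and 178 and 149 CPM in Gata6STOP/+ pools. *Eya3* (64.5 against 63.9 CPM) and *Eya4* (12.6 against 14.2 CPM) both had far more reads than *Eya1*. The log2 fold changes of the 6 ran from −0.03 to 0.24, all with groups that overlapped. Their median was 0.11, and it was −0.013 with the Y-linked covariate and 0.0041 without Gata6STOP/+ replicate 1. *Nkx2-3*, *Mef2b* and *Eya2* were not listed.

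All 26 partners and cofactors of the factors were listed, and 0 passed the adjusted threshold with limma. At an unadjusted P-value under 0.05, 2 were higher and 1 was lower in Gata6STOP/+ pools, and the groups of these 3 did not overlap. Over all genes, 8.06% were under that P-value and 8.47% did not overlap. *Dach1*, a nuclear cofactor of the EYA coactivators, was at 17.1, 17.8 and 17.3 CPM in control pools and at 23.0, 21.2, 22.2 and 19.3 CPM in Gata6STOP/+ pools (log2 fold change 0.29, limma adjusted P-value 0.368). *Six4*, a homeobox partner of EYA proteins, had means of 9.51 and 11.2 CPM (log2 fold change 0.22, adjusted P-value 0.595). *Hopx*, a homeodomain-only repressor of serum response factor in differentiating cardiomyocytes, was at 35.8, 59.9 and 36.5 CPM in control pools and at 18.3, 34.3, 26.7 and 30.6 CPM in Gata6STOP/+ pools. Its log2 fold change was −0.66 with an adjusted P-value of 0.444, and its extremes were control replicate 4 and Gata6STOP/+ replicate 1. The list's median log2 fold change was −0.02.

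Of 28 signals and progenitor genes of the SHF, 24 were listed, and 0 passed the adjusted threshold. *Fgf8* and *Shh*, ligands made in or next to the SHF, were not listed, nor were *Prdm1* and *Tdgf1*. *Ptch1*, the Hedgehog receptor and a target of Hedgehog signalling, had means of 41.8±2.62 CPM (s.d., n=3) and 49.7±5.93 CPM (s.d., n=4), with a log2 fold change of 0.24 (limma adjusted P-value 0.554). *Pdgfra*, the receptor of platelet-derived growth factor in mesenchymal progenitors, stood at 311, 227 and 280 CPM in the control pools (replicates 3, 4 and 5), against 223, 159, 167 and 223 CPM in the Gata6STOP/+ pools (replicates 1, 3, 4 and 5). Its Gata6STOP/+ pools were all below the controls, by a log2 fold change of −0.50 (adjusted P-value 0.354). Of the 24 genes, 1 was higher and 1 lower at an unadjusted P-value under 0.05, against 8.06% of all genes. The median of the list was 0.06, and it was −0.043 with the Y-linked covariate, 0.0095 when control replicate 4 was left out and 0.0057 when control replicate 5 was.

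Of 18 genes known as targets of the factors in heart or pharynx, 17 were listed, and 0 passed the adjusted threshold. At an unadjusted P-value under 0.05 there were 7, of which 6 were lower in Gata6STOP/+ pools and 1, *Hey2*, was higher, where all genes gave 8.06%, with 3.88% lower and 4.17% higher. The 4 with the smallest P-values were *Fbln1* and *Postn*, matrix genes of valve mesenchyme, *Bmp10*, a ligand of trabecular myocardium, and *Nppa*. *Fbln1* was at 149, 156 and 159 CPM in control and at 132, 123, 129 and 142 CPM in Gata6STOP/+ pools (log2 fold change −0.23, limma adjusted P-value 0.342), without overlap. *Postn* had means of 759±103 CPM (s.d., n=3) and 554±114 CPM (s.d., n=4), with overlap (−0.47, adjusted P-value 0.433). *Bmp10* was at 6.14, 66.5 and 11.3 CPM in control and at 0.631, 5.69, 1.75 and 5.79 CPM in Gata6STOP/+ pools. *Nppa* was at 32.1, 174 and 18.3 CPM in control and at 3.26, 28.3, 6.63 and 11.8 CPM in Gata6STOP/+ pools. The control means of these last 2 genes rested on replicate 4, the pool rich in chamber transcripts. *Nppb* (10.2, 58.1 and 13.3 CPM in control) and *Irx4* (19.5, 36.1 and 27.9 CPM), also among the 6 lower genes, were highest in that pool too. The list was chosen with earlier results of these data known, so its count is no test against the share of all genes. The median log2 fold change of the 17 genes was −0.21, and −0.057 with the Y-linked covariate.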

How the data were processed

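Polyadenylated RNA of E11.5 OFT pools, 3 control and 4 Gata6STOP/+, was sequenced from directional libraries as 60-base single-end reads. After Cutadapt trimming and RSEM quantification against GRCm38, the authors retained genes reaching 1 CPM in 3 or more samples, and the deposited values are CPM scaled with edgeR's TMM factors. All 14732 listed genes met that minimum. In each pool 100% of the values were whole multiples of 1 step within a tolerance of 0.01, so the reads behind them were recovered, between 17783655 and 34467710 per pool. The 8 factors and all gene lists were chosen with earlier results of these data known.

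The test was limma 3.58.1 under R 4.3.3 (a linear model per gene, moderated towards a trend of variance on mean), applied to log2(CPM+0.5) of the 7 pools with no covariate, two-sided, with Benjamini-Hochberg adjustment over all genes and a threshold of 0.05. This scale understates the change of genes with few reads. On simulated reads, limma called 147 of 200 changed genes and 11 unchanged ones, and 0 where none was changed. Of genes simulated with a log2 fold change of 0.5 it called 61.5%, and of those with 1 it called 84.6%. Whether these shares hold for the 7 pools, which differed in sex-linked, chamber and erythroid transcripts, was not tested. Counting intervals are exact Poisson intervals, which cover counting error only.

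Genes named are the 8 factors, *Gata6*, listed paralogs, at most 4 genes of each other list with the smallest unadjusted P-values among those under 0.05 or without overlap, the 2 nearest profiles, and genes overlapping or beside a factor. Genes outside this rule (*Xist*, *Hey2*, *Nppb*, *Irx4*, *Sox2*, *Krt8*, *Krt18*, *Acta2*, *Tagln* and genes not listed) are named after their values were seen. Some items that the rule or lists name are not reported here. Other lists held markers of cardiomyocytes, neurons, smooth muscle, neural crest, endothelium, epithelium, epicardium and erythroid cells. Positions come from GENCODE M21 (GRCm38), where 14723 identifiers were found. Promoter windows come from RefSeq (GRCm38.p6).

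Alternatives were constants of 0.1 and 2, a mean of at least 5 CPM, median-of-ratios scaling, the replicate number as a block, mean Y-linked expression as a covariate, both the quasi-likelihood and the likelihood ratio test of edgeR 4.0.16, DESeq2 1.42.0 on the recovered reads (as for edgeR), and each pool left out in turn. Pools sharing a replicate number did not deviate together (correlations of −0.0465, −0.266 and −0.0174 over 11627 genes, where each had to exceed 0.1), so the numbers were not taken to pair the pools.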

Additional observations from a re-analysis of the deposited data

How the results depend on the processing

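The count of genes called was 0 with limma and with edgeR's quasi-likelihood test, 1 with a constant of 0.1, 6 with the Y-linked covariate, 88 with DESeq2 and 105 with edgeR's likelihood ratio test. It ranged from 0 to 13 when 1 pool was left out, with 13 without control replicate 4, 2 without Gata6STOP/+ replicate 3 and 1 without Gata6STOP/+ replicate 1. The count of factors called was 1, *Hand1*, with DESeq2 and with the likelihood ratio test (log2 fold change 0.41 in both), and 0 in the other 16 alternatives. The log2 fold change kept its sign in every alternative for *Isl1* (0.28 to 0.58), *Hand1* (0.25 to 0.53), *Eya1* (0.42 to 1.05, in the 17 that kept it), *Foxc2* (−0.62 to −0.20), *Nkx2-5* (−0.24 to −0.015) and *Mef2c* (0.02 to 0.25). The adjusted P-value ranged from 0.0899 to 0.689 for *Isl1* and from 0.0215 to 0.626 for *Hand1*. *Hand2* turned to −0.088 with the Y-linked covariate and, over pools left out, ranged from −0.036 to 0.10. *Foxc1* turned to −0.10 with that covariate and ranged from −0.084 to 0.10 over pools left out. The cause was not tested. Replicate number 1 occurs only among Gata6STOP/+ pools, so a block on that number takes this pool out of the comparison. With the block, *Foxc1* was at −0.084 in limma, its value without that pool, and in both edgeR tests. The genes called were then 14 with limma, 13 with the quasi-likelihood and 118 with the likelihood ratio test. None of these blocked fits called a factor, with *Hand1* at 0.38 (adjusted P-value 0.0608 to 0.387). Since the pools share only a number, a call lost under the block is not read as a weaker effect. Depth limits *Eya1* alone among the factors, whose 14 to 57 control reads leave its level uncertain.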

Other observations

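Markers of the other cell types in the OFT pools, which the report does not describe, passed the adjusted threshold in 0 cases with limma. *Ednrb*, the endothelin receptor of neural crest cells, stood at 22.5, 81.0 and 27.8 CPM in the control pools (replicates 3, 4 and 5), against 18.6, 17.2, 14.1 and 16.5 CPM in the Gata6STOP/+ pools (replicates 1, 3, 4 and 5), without overlap (log2 fold change −1.14, adjusted P-value 0.393). *Erbb3*, a neuregulin receptor of crest-derived glial precursors, had means of 84.4±17.7 CPM (s.d., n=3) and 63.7±5.37 CPM (s.d., n=4). The 7 listed markers of neural crest and Schwann precursors summed to 231–298 CPM in control and 183–226 CPM in Gata6STOP/+ pools, without overlap, while *Foxd3* and *Fabp7* were not listed. The slow skeletal troponin gene *Tnni1*, which embryonic heart muscle also uses, was lower in each Gata6STOP/+ pool than in any control pool (means 792 and 938 CPM, adjusted P-value 0.598). Of 7 smooth muscle markers, 5 had log2 fold changes above 0, *Acta2* (0.19) and *Tagln* (0.16) among them, and the list's median was 0.15. *Smtn* of that list was lower in each Gata6STOP/+ pool (92.8 and 103 CPM, adjusted P-value 0.567).

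The summed levels of the other lists overlapped between groups. They were 3084–3602 CPM in control and 3086–4090 CPM in Gata6STOP/+ pools for smooth muscle, 796–1092 and 876–1072 CPM for endothelium and endocardium, 376–442 and 346–472 CPM for epicardium, and 71.0–111 and 85.7–118 CPM for the 3 listed epithelial markers. Erythroid genes ranged from 2495 to 6020 CPM and from 2890 to 7675 CPM. All 9 of these genes had log2 fold changes above 0, with a median of 0.39, and 0 passed the adjusted threshold with limma. Of genes beside the factors on their chromosomes, the integrin gene *Itga1* was the nearest listed gene to the left of *Isl1*, 1196316 bases away. It was higher in each Gata6STOP/+ pool than in any control pool, as were 4.31% of all genes. Its means were 125±1.53 and 148±8.87 CPM (log2 fold change 0.24, limma adjusted P-value 0.289). *Parp8*, the nearest to the right of *Isl1* at 545130 bases, had a log2 fold change of 0.02, with groups that overlapped. For the other factors, the nearest listed genes on either side, some of them far closer, all had groups that overlapped.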
